A study of Mus musculus with 4 samples.

Results

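The fatty acid elongases and desaturases are the enzymes that lengthen fatty acids and put double bonds into them. The 9 genes described here, Elovl1, Elovl2, Elovl3, Elovl5, Elovl6, Fads1, Fads2, Scd1 and Scd2, were chosen by name, and their values come from the 21 probe sets that the platform annotation assigns to 1 of these symbols alone, out of 18193 genes measured in the same way. A probe set is a group of short oligonucleotides on the array that together report 1 transcript. Liver was taken from males of the inbred mouse strain C57BL/6J, with no engineered allele named, aged 4, 8, 13 or 21 months. All mice had unrestricted access to a low-fat diet, had been bought at 4 weeks of age and had eaten that diet for 1 week before the experiment began. Each array carried the combined RNA of 6 animals of 1 age, so the study has 4 arrays and no replicate at any age. The question that the ages address is how liver expression differs from young adulthood to old age.

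Fatty acid elongation takes place at the endoplasmic reticulum and adds a pair of carbons in each round. The Elovl proteins carry out the condensation that starts a round, and each prefers its own acyl chains. The Scd enzymes place a double bond into saturated chains and make oleic and palmitoleic acid, while Fads1 and Fads2 desaturate the polyunsaturated chains that lead to arachidonic acid and docosahexaenoic acid. In liver, several of these genes are known targets of the lipogenic transcription factor SREBP-1c and of the oxysterol receptor LXR.

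All values are log2 expression values, so a difference of 1 is 2-fold. There is no error bar on any difference, no test between ages was made, and no p-value is given, since each age has 1 array and the spread between mice is hidden by pooling. As a measure of disagreement between probe sets, the age differences from 2 probe sets of the same gene were set against each other for 4796 genes. These differences disagreed by a median of 0.11 to 0.12 in the 4 comparisons, and the 90th percentile of the disagreement was 0.32 to 0.34. Both probe sets read the same RNA on the same arrays. An error that a pool or an array brings to both is therefore not in this measure, and a difference beyond it can still be such an error. The medians of the arrays lay between 3.73 and 3.76, and the number of arrays limits the precision. The labelled tissue was checked with 10 hepatocyte markers, among them albumin, and all 10 lay above the filter on level, with mean log2 values of 12.23, 12.14, 12.17 and 12.18. In a piece of tissue, fewer cells of a type and less RNA per cell cannot be told apart.

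Elovl3 was the only 1 of the 9 genes past 1.5-fold between 4 and 21 months. All 9 passed the filter on level, a mean log2 value of at least 3.74, which 11587 genes passed. At 21 vs 4 months 1 of the 9, Elovl3, was at least 1.5-fold lower and 0 were at least 1.5-fold higher, where 0.423% of all genes above the filter were that much lower and 2.11% that much higher. At 8 vs 4 months 0 of the 9 passed 1.5-fold in either direction (0.501% of all genes were higher by that much and 0.354% lower). At 13 vs 8 months 0 passed (0.716% higher and 0.362% lower), and at 21 vs 13 months 0 passed (1.47% higher and 0.457% lower). Over the members the median difference was -0.09 at 8 vs 4 months, 0.04 at 13 vs 8, 0.07 at 21 vs 13 and 0.07 at 21 vs 4. The medians of all genes above the filter were 0.00, 0.01, 0.01 and 0.01. The comparisons share arrays, so a chance deviation of 1 pool enters more than 1 of them.

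**Figure D1:**
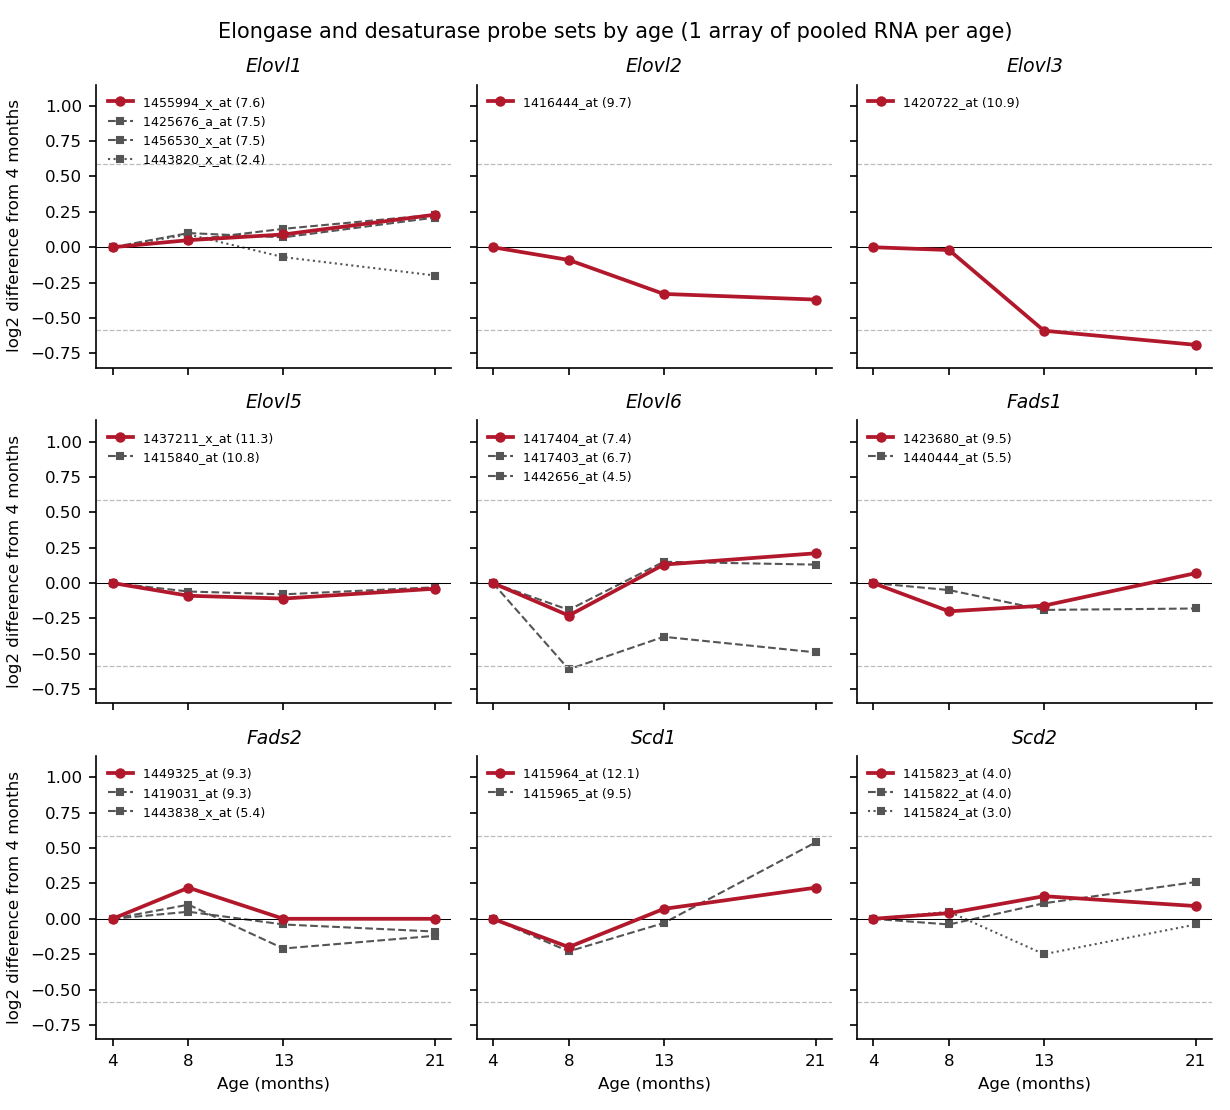
Log2 difference from the 4-month array against age in months for every probe set of the 9 genes; the red line with circles is the probe set used for the gene, dashed grey lines are its other probe sets above the level filter, dotted lines those below it, and the number in brackets is the mean log2 level. Grey horizontal lines mark 1.5-fold. Elovl3 and Elovl2 end below their 4-month level, at -0.69 and -0.37. Above the filter, the probe sets of Elovl6 and Fads1 disagree on the sign of the 21-month difference and those of Scd1 on its size.

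The elongases of saturated and monounsaturated chains went different ways. Elovl3, which elongates long saturated and monounsaturated chains and is known in liver for a higher level in males and a daily rhythm, was at 11.23, 11.21, 10.64 and 10.54 at 4, 8, 13 and 21 months. The steps from 4 to 8 and from 13 to 21 months were -0.02 and -0.10. The largest step lay between 8 and 13 months, at -0.57, which is 1.48-fold lower and falls just short of the 1.5-fold limit of 0.585. Against 4 months Elovl3 was 1.51-fold lower at 13 months and 1.61-fold lower at 21 months. Of the genes above the filter, 0.362% had a lower difference than Elovl3 at 13 vs 8 months and 0.190% at 21 vs 4 months. Both values exceed the 90th percentile of disagreement between probe sets (0.34 and 0.32), although Elovl3 has only 1 probe set and no second reading of its own.

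Elovl6, which elongates palmitate to stearate and so feeds Scd1, was at 7.38, 7.15, 7.51 and 7.59. The 8-month pool was the lowest and the 21-month pool the highest. The step from 8 to 13 months, 0.36 or 1.28-fold, was above the 90th percentile of disagreement (0.34), and the difference at 21 vs 4 months, 0.21, was within it. A second probe set of Elovl6, at 6.64, 6.45, 6.79 and 6.77, was also lowest at 8 months. Its dimmest probe set was at 4.92, 4.31, 4.54 and 4.43, with a 21 vs 4 months difference of -0.49, opposite in sign to the other 2. All 3 were lower at 8 than at 4 months, by -0.23, -0.19 and -0.61, and higher at 13 than at 8 months, by 0.36, 0.34 and 0.23.

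Elovl1, which makes very long saturated and monounsaturated chains for sphingolipids, was at 7.47, 7.52, 7.56 and 7.70. It was higher at each later age, as was 1 of its 2 other probe sets above the filter, and 3 of the 9 genes (Elovl1, Elovl2 and Elovl3) moved in 1 direction at every step, as 7.52% of all genes above the filter did. Each of these runs rests in part on steps below the median disagreement between probe sets, 0.12. Such steps were 0.04 in Elovl1, -0.04 in Elovl2 and -0.02 in Elovl3. The 21 vs 4 months difference of Elovl1 was 0.23, and its 2 other probe sets above the filter gave 0.21 and 0.23. This is 1.17-fold and within the 90th percentile of disagreement (0.32). It is a small difference on which 3 probe sets differed by 0.02, but the spread between mice is unknown. Of these 3 probe sets, 2 carry a suffix that marks probes which can match other transcripts.

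**Figure D2:**
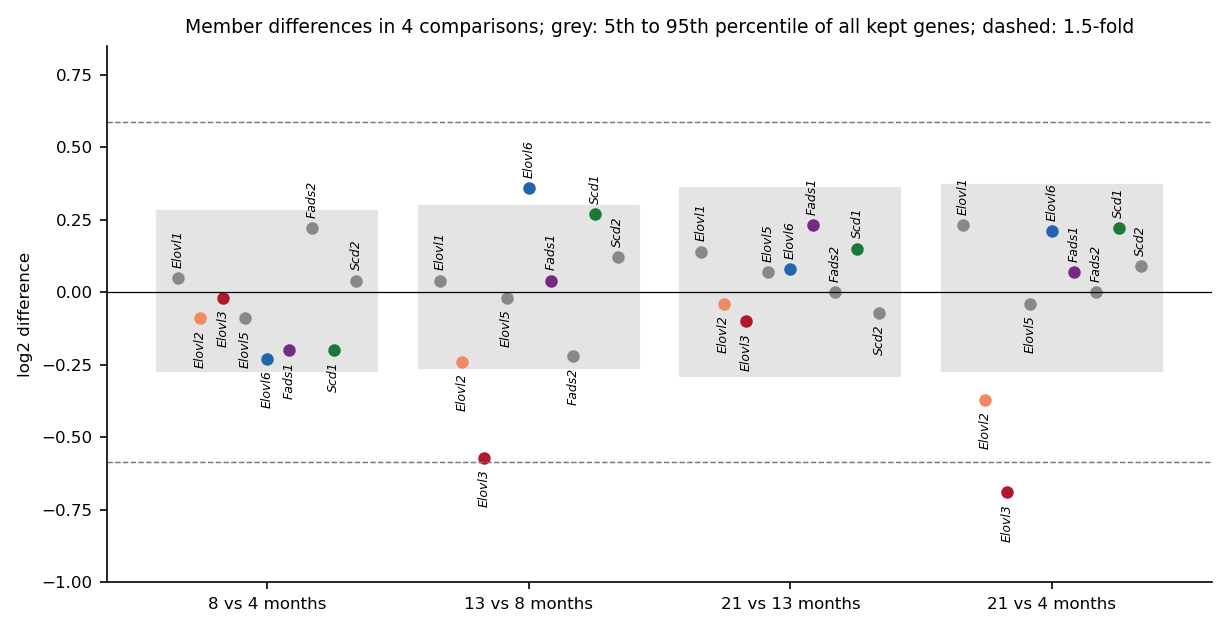
Log2 difference of each of the 9 genes in 4 comparisons of ages, with 1 array per age; grey bands span the 5th to the 95th percentile of all genes above the filter and dashed lines mark 1.5-fold. Elovl3 lies below the band at 13 vs 8 and 21 vs 4 months, Elovl2 below it at 21 vs 4 months, and Elovl6 above it at 13 vs 8 months.

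The elongases of polyunsaturated chains also differed from each other. Elovl2, which elongates the longer polyunsaturated chains on the way to docosahexaenoic acid, was at 9.89, 9.80, 9.56 and 9.52. Each later pool was lower than the one before. The 21 vs 4 months difference was -0.37, or 1.29-fold lower, beyond the 90th percentile of disagreement of 0.32, and 1.88% of the genes above the filter had a lower one. Like Elovl3, Elovl2 has only 1 probe set and no second reading of its own. The largest step, -0.24 from 8 to 13 months, lay in the same interval as that of Elovl3 and was within the 90th percentile of disagreement between probe sets. Elovl5, which elongates the shorter polyunsaturated chains, was at 11.33, 11.24, 11.22 and 11.29. Its range of 0.11 over the ages was smaller than that of 82.6% of the genes above the filter, and its second probe set, at 10.80, 10.74, 10.72 and 10.77, had the same order of ages. The 21 vs 4 months differences of the 2 probe sets were -0.04 and -0.03.

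The promoters of these 2 polyunsaturated-chain elongases are shown because the genes act in sequence in 1 pathway and yet had unlike profiles, Elovl2 lower at the older ages and Elovl5 nearly level. The windows are RefSeq's, 250 bases before to 50 after the annotated start on the strand of the gene. For Elovl2 the window is chr13:41220354-41220653 (GRCm38.p6, minus strand), and for Elovl5 it is chr9:77917115-77917414 (GRCm38.p6, plus strand). Capitals mark matches, on either strand, to the GC box GGGCGG, the NF-Y box CCAAT, the E-box CACGTG or the CRE TGACGTCA.
Elovl2: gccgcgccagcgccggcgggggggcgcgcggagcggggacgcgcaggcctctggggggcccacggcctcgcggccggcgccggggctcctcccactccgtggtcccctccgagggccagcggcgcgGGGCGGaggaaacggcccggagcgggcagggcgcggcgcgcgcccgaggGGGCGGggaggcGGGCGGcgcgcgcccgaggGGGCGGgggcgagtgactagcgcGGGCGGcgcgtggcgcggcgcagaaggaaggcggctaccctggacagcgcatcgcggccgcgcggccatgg
Elovl5: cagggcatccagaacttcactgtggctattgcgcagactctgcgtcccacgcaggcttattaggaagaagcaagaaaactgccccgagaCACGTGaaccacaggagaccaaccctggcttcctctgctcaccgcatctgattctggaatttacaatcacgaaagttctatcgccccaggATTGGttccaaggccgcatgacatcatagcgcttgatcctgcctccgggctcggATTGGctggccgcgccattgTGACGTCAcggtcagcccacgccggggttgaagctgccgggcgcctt

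The printed Elovl2 window was 84.7% G and C, against a median of 52.7% over the 32851 promoter windows of the RefSeq table, and held 5 GC boxes. RefSeq has a second Elovl2 window, chr13:41220113-41220412, which overlaps the first, was 76.7% G and C and held 0 GC boxes. The Elovl5 window, 57.7% G and C, held 2 NF-Y boxes, at bases -71 and -17, an E-box at -161 and a CRE at base 4 after the start. Of all windows 35.7% held the GC box, 37.4% the NF-Y box, 7.15% the E-box and 1.79% the CRE. Matched windows were found for 5 of the 9 genes, Elovl1, Elovl2, Elovl5, Elovl6 and Fads2, 7 windows in all. The GC box was also in both Elovl1 windows and in the Fads2 window, and an NF-Y box, overlapping a GC box, was in 1 Elovl1 window. The sterol element core TCACNCCAC, the TATA box TATAAA, the D-box TTATGNAA and 2 direct repeats of AGGTCA spaced by 1 or 4 bases (DR1 and DR4) were searched too and matched none of the 7 windows. Of all windows 1.24% held the sterol element core, 13.6% the TATA box, 3.38% the D-box, 0.0396% DR1 and 0.0152% DR4. A match of letters is a description and not a binding site.

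Of the stearoyl-CoA desaturases, Scd1 is the main liver enzyme and makes oleic acid from stearic acid. Its probe set with the highest mean was at 12.03, 11.83, 12.10 and 12.25, lowest at 8 and highest at 21 months. Its second probe set was at 9.45, 9.22, 9.42 and 9.99. Both were lower at 8 than at 4 months, by -0.20 and -0.23, and higher at 13 than at 8 months, by 0.27 and 0.20. They parted at 21 vs 13 months, where the first gave 0.15 and the second 0.57, and at 21 vs 4 months, where they gave 0.22 and 0.54. The gap of 0.42 at 21 vs 13 months equals the 95th percentile of disagreement between probe sets, 0.42, so the size of the late Scd1 difference is uncertain while its sign was the same in both.

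Scd2, the isoform known from brain and from early life, was at 3.94, 3.98, 4.10 and 4.03, close to the filter of 3.74, so these values cannot be told from background. Its 2 other probe sets were at 3.87, 3.83, 3.98 and 4.13 and, below the filter, at 3.05, 3.10, 2.80 and 3.01. No probe set of Scd2 differed between 21 and 4 months by more than 0.26.

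The desaturases of polyunsaturated chains differed by less than the 90th percentile of disagreement between probe sets in all 4 comparisons. Fads2, which carries out the first desaturation of linoleic and alpha-linolenic acid, was at 9.27, 9.49, 9.27 and 9.27 and thus highest at 8 months. Its second probe set, at 9.34, 9.39, 9.30 and 9.25, was also highest at 8 months but by less, 0.05 against 0.22 over 4 months. Its dimmer last probe set was at 5.50, 5.60, 5.29 and 5.38, again highest at 8 months. Fads1, which acts later and makes arachidonic acid, was at 9.57, 9.37, 9.41 and 9.64, low at 8 and 13 months. Its dimmer second probe set, at 5.64, 5.59, 5.45 and 5.46, did not return to its 4-month level and differed by -0.18 at 21 vs 4 months where the first differed by 0.07. At 8 vs 4 months the 2 neighbouring genes were thus on opposite sides of 0, Fads1 at -0.20 and Fads2 at 0.22. In the RefSeq gene order Fads1 lies next to Fads2, with Fads3 on the other side, and Scd1 and Scd2 lie on either side of Scd4. All 4 and Elovl3 are on chromosome 19, which carries 5 of the 9 genes.

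Ranked by their range over the 4 ages, the genes were Elovl3 (0.69), Elovl6 (0.44), Scd1 (0.42), Elovl2 (0.37), Fads1 (0.27), Elovl1 (0.23), Fads2 (0.22), Scd2 (0.16) and Elovl5 (0.11). Among all genes above the filter the median range was 0.22 and the 95th percentile 0.60, and 5.42% had a range of at least 1.5-fold, as 1 of the 9 did. The range was above that median in 6 of the 9, and Elovl6, Scd1 and Elovl2 had larger ranges than 88.3%, 86.9% and 81.4% of these genes. The order depends on the probe set: with the second one Scd1 had a range of 0.77 and led, above Elovl3, and with the mean over probe sets Scd1 (0.595) came before Elovl6 (0.34). Neighbours in this ranking from Elovl6 to Elovl5 differ by at most 0.10, less than the median disagreement between probe sets. Among the 36 pairs of members, Elovl6 and Scd1, which act one after the other on palmitate, had the closest profiles. After each gene was centred on its mean over the 4 arrays, their root mean square difference was 0.033. Over the other pairs of an Elovl6 with an Scd1 probe set it was 0.060 to 0.37, so this closeness rests on the probe sets with the highest means. This is a description over 4 arrays, and 739 genes above the filter lay within 0.10 of the Elovl6 profile and 1223 within 0.10 of that of Scd1. Nearest to Elovl6 were Scfd2 (0.0071), Gnai2 (0.0071) and Angpt2 (0.022), and nearest to Scd1 were Ccnyl1 (0.0083), Ank3 (0.015) and 4833418N02Rik (0.017). Nearest to Elovl2 were Myl6 (0.016), Atcayos (0.018) and Ttc39c (0.022), with 679 genes within 0.10. The Elovl3 profile had 6 genes within 0.10, and the nearest were Myl6b (0.032), Slco1a1 (0.064) and Hspa1a (0.068). Myl6b, at 4.12, 4.09, 3.57 and 3.50, was close to the filter of 3.74, so its values cannot be told from background. Hspa1a was at 4.75, 4.70, 4.06 and 4.15. Angpt2, at 3.97, 3.70, 4.04 and 4.14, and 4833418N02Rik, at 4.11, 3.93, 4.16 and 4.31, were also close to the filter.

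The remaining members of these families were given beside the 9. Fads3, a desaturase of sphingoid bases, was at 4.58, 4.47, 4.77 and 4.38, Fads6 at 8.28, 8.18, 8.28 and 8.42, and Scd3 at 4.25, 4.12, 4.11 and 4.01. Of these 3 above the filter, 0 passed 1.5-fold in any of the 4 comparisons. Fads3 differed by -0.39 at 21 vs 13 months, beyond the 90th percentile of disagreement between probe sets (0.34). Other enzymes complete each elongation round after the Elovl step. The reductase Hsd17b12, the dehydratases Hacd1, Hacd2, Hacd3 and Hacd4 and the reductase Tecr ranged from -0.13 to 0.13 at 21 vs 4 months, with a median of -0.06 and 0 of 6 past 1.5-fold. Their largest difference between neighbouring ages was that of Hacd1, -0.36 at 21 vs 13 months. The cytochrome b5 proteins and their reductases, which pass electrons to the desaturases, ranged from -0.10 to 0.07, with a median of 0.01 and 0 of 6 past 1.5-fold. All 6 were below their 4-month level at 8 months, by a median of -0.085, where 48.7% of all genes above the filter were. These differences ran from -0.18 to -0.04. Their median is smaller in size than the median disagreement between probe sets, 0.12, and all 6 come from the same 2 arrays.

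**Figure D3:**
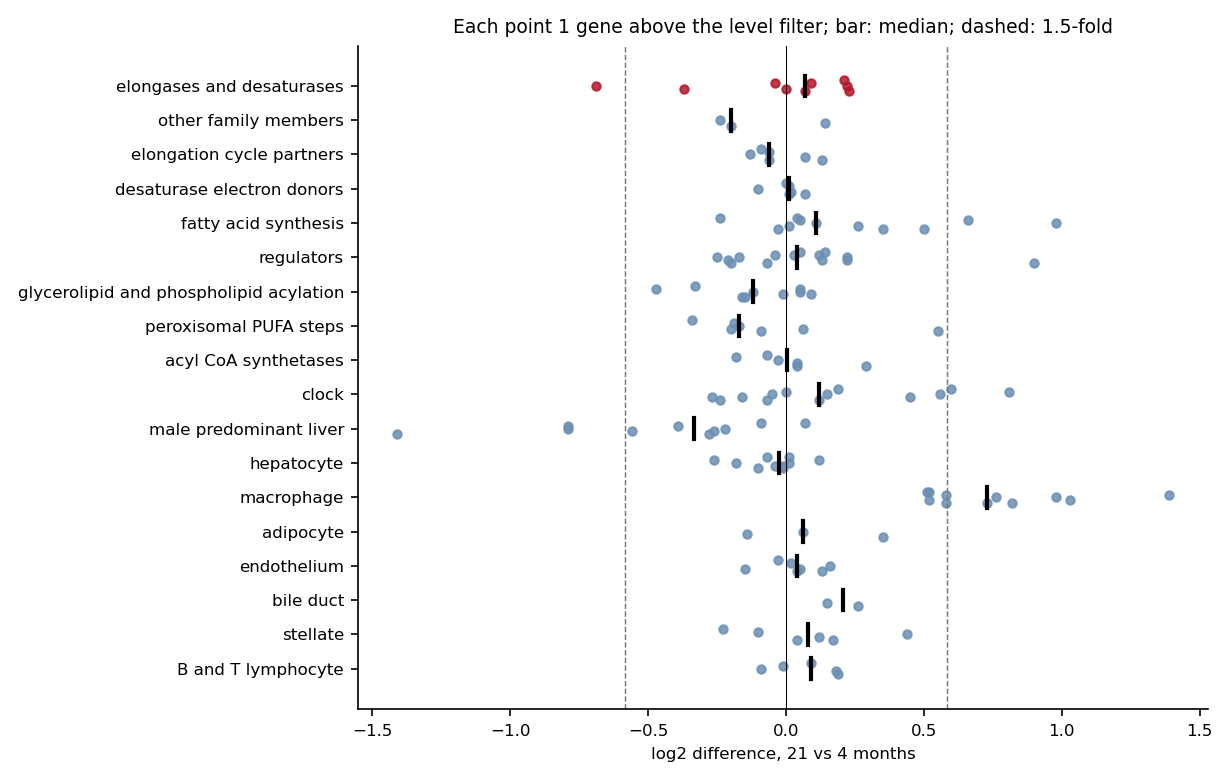
Log2 difference at 21 vs 4 months of each gene above the level filter, for the 9 elongases and desaturases (red), 10 lists of related genes and 7 lists of cell type markers (blue); black bars are medians and dashed lines 1.5-fold. The elongation partners and electron donors lie close to 0, the male-predominant genes have a median of -0.335 and the macrophage markers 0.73.

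The genes that supply saturated fatty acids and those that control the pathway were set beside Scd1, Elovl6 and Fads1, the 3 members that were lowest at 8 months. Srebf1, which encodes SREBP-1c, was at 8.00, 8.18, 8.56 and 8.90, higher at each later age and 1.87-fold higher at 21 than at 4 months. Its step from 4 to 8 months, 0.18, had the opposite sign to those of Scd1, Elovl6 and Fads1. Of 14 regulators above the filter Srebf1 alone was at least 1.5-fold higher at 21 vs 4 months, 0 were lower by that much, and the median was 0.04. The carbohydrate-response factor Mlxipl differed by 0.22, the LXR gene Nr1h3 by 0.12 and Ppara by -0.20. Of 11 fatty acid synthesis genes above the filter, 2 were at least 1.5-fold higher at 21 vs 4 months, Thrsp by 0.98 and Fasn, the fatty acid synthase, by 0.66, and 0 were lower by that much. The 2 other Thrsp probe sets above the filter disagreed, at 1.02 and 0.12, and Fasn and Srebf1 have 1 probe set each. Acaca differed by 0.26, but its other probe set above the filter by 0.61, which is past 1.5-fold. Acacb differed by 0.11, and its other probe set above the filter by -0.35. Pgd, which supplies NADPH, differed by 0.50 and Acly, which supplies acetyl-CoA, by 0.35. At 8 vs 4 months 8 of the 11 were below 0, with a median of -0.18, where 48.7% of all genes above the filter were below 0. At 13 vs 8 months 10 of the 11 were above 0, with a median of 0.19, where 50.2% of all genes were.

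**Figure D4:**
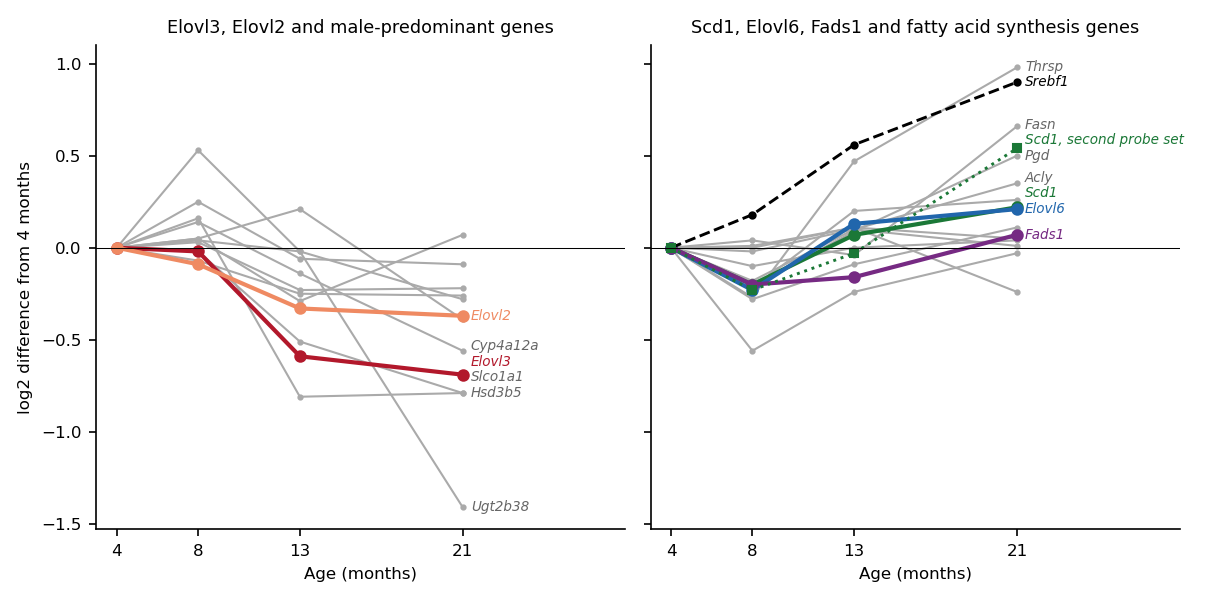
Log2 difference from the 4-month array against age in months, 1 array per age; left, Elovl3 and Elovl2 with the 10 male-predominant liver genes in grey, and right, Scd1, Elovl6 and Fads1 with the 11 fatty acid synthesis genes in grey, Srebf1 dashed in black and the second Scd1 probe set dotted. Elovl3 lies near Slco1a1 and Hsd3b5 at 13 and 21 months, and Scd1, Elovl6 and Fads1 all lie below 0 at 8 months.

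Markers of macrophages were also lowest at 8 and highest at 21 months in most cases. Of 11 such markers 10 were lowest at 8 months, as 26.2% of all genes above the filter were, and 10 were highest at 21 months, as 30.3% were. The full order of Scd1 and Elovl6, from 8 over 4 and 13 to 21 months, was seen in 4 of the 11 and in 6.46% of all genes, and the second probe sets of Scd1 and Elovl6 lack it. The mean log2 value of 11 of 11 macrophage markers was 7.32, 6.88, 7.44 and 8.09 at the 4 ages, and the macrophage gene Mpeg1 was 2.62-fold higher at 21 than at 4 months. The part of macrophages in the Scd1 and Elovl6 values was not tested. Of 5 fat cell markers 3 were above the filter, with means of 7.77, 7.73, 7.79 and 7.86: Car3, which ranged from 12.36 to 12.42, Retn, from 4.40 to 4.62, and Fabp4, which was at 6.34, 6.26, 6.59 and 6.69. The 2 below it were Adipoq at 2.40, 2.20, 2.44 and 2.15 and Lep at 3.17, 3.18, 3.07 and 3.06. With these 2 below the filter, the mean of the other 3, lifted by Car3, cannot be read as a level of fat cells. Probe sets of Car3 disagreed at 21 vs 4 months: the one used gave 0.06, and its 3 others above the filter gave 1.35, 1.30 and 0.33. For Fabp4 the one used gave 0.35, and its 2 others above the filter gave -0.30 and 0.14. The means of endothelial markers were 6.84, 6.65, 6.75 and 6.87, those of stellate cell markers 7.465, 7.45, 7.38 and 7.54, and those of B and T lymphocyte markers 4.24, 4.49, 4.40 and 4.31. Only 2 of 6 bile duct markers were above the filter, with means of 3.905, 3.995, 3.74 and 4.11.

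Elovl3 was also set beside other genes known to be higher in male than in female mouse liver. Of 10 such genes above the filter, 3 were at least 1.5-fold lower at 21 vs 4 months, 0 were higher by that much, 9 were below 0 and the median was -0.335. Of all genes above the filter 0.423% were lower by that much and 45.2% were below 0. Ugt2b38, a glucuronosyltransferase, was at 7.52, 8.05, 7.50 and 6.11, with a step of 0.53 to 8 months, -0.55 to 13 months and its largest, -1.39, to 21 months. The steroid dehydrogenase Hsd3b5 was at 9.90, 10.06, 9.09 and 9.11, and the organic anion transporter Slco1a1 at 10.38, 10.36, 9.87 and 9.59, both with their largest step from 8 to 13 months as in Elovl3. Cyp4a12a, a fatty acid hydroxylase, was at 10.81, 10.95, 10.67 and 10.25.

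No label states at which hour livers were collected, and clock genes differed between the pools. Dbp, a clock output factor, was at 7.98, 9.07, 9.14 and 8.79, and Arntl, a core activator, at 6.09, 5.66, 5.44 and 5.85. The largest Dbp step, 1.09, was from 4 to 8 months. Of 13 clock genes above the filter 3 were at least 1.5-fold higher at 8 vs 4 months and 0 passed 1.5-fold at 13 vs 8 months. At 13 vs 8 months these 13 ranged from -0.29 to 0.48, the highest being Per2. The part of collection hour in the Elovl3 values was not tested. Hour and age cannot be told apart in this design.

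In the probe sets used, genes of lipid acylation, of peroxisomal chain shortening and of acyl-CoA synthesis differed by at most 0.55 in size at 21 vs 4 months. Of 9 genes of glycerolipid and phospholipid acylation 0 passed 1.5-fold, with a median of -0.12, and Lpin1, which makes diacylglycerol, was at 10.06, 9.48, 9.81 and 9.59. In this list Dgat1 differed by -0.15, and its other probe set above the filter by -0.56. Of 7 genes of the peroxisomal steps that shorten polyunsaturated chains 0 passed, with a median of -0.17, from -0.34 for the bifunctional enzyme gene Ehhadh to 0.55 for the transporter gene Abcd2, whose 2 other probe sets above the filter gave 0.46 and 0.10. Of 6 acyl-CoA synthetase genes above the filter 0 passed, with a median of 0.005.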

How the data were processed

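Liver RNA of male mice at 4 ages was measured on 4 arrays, 1 pool of 6 mice per age. The deposited values are log2 expression values made by the authors with RMA, a method of background correction, between-array normalization and probe summary, per the submitters' processing notes. The sources used here name no version. RMA makes array distributions alike, so a shift of most genes would not show.

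Of 45101 probe sets, 34945 had 1 gene symbol and 932 had several. Gene identifiers of 34741 matched RefSeq's GRCm38.p6 table and 0 symbols changed. A gene was represented by its probe set with the highest mean, and kept at or above 3.74, the median of probe set means. Differences were counted at 1.5-fold.

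The members and gene lists were chosen with earlier results of these data known. Genes named were every member, up to 4 genes per list with the largest difference at 21 vs 4 months, the other family members, Srebf1, Mlxipl, Nr1h3, Ppara, Dbp and Arntl, and the 3 genes nearest in profile to each of 4 members. Other list genes, such as Adipoq, Lep and Hacd1, were named after their values were seen. Alternatives were the probe set rule, the filter, centring, quantile normalization, cyclic loess and size limits of 2-fold or 0.32 on the log2 scale. The counting step was tested on simulated data. Tools were limma 3.58.1 in R 4.3.3, for normalization only, and Python 3.11.15 with pandas 2.3.3, numpy 2.4.6 and matplotlib 3.10.9.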

Additional observations from a re-analysis of the deposited data

How the results depend on the processing

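For 17 member differences larger than 0.12, the median disagreement between probe sets, 77 alternative values came from settings that can change them, 51 from other scalings and 26 from other probe set rules for genes with several. The sign was that of the reported value in 76 of the 77, and the exception was Elovl6 at 21 vs 4 months with -0.05 as the mean over its probe sets. This count says little, since the differences were chosen for their size and the scalings shift values little. The mean over probe sets also contains the probe set used. Among the smaller differences left out, Fads1 at 21 vs 4 months went from 0.07 to -0.18 with the second probe set. The number of members past 1.5-fold at 13 vs 8 months went from 0 to 1 with quantile normalization (Elovl3 at -0.60) and with cyclic loess (-0.61), and to 2 with a limit of 0.32 on the log2 scale. At 21 vs 4 months it went from 1 to 0 with a 2-fold limit and to 2 with the limit of 0.32 (Elovl2 and Elovl3). Of all genes above the filter 0.596% passed 2-fold at 21 vs 4 months. The shares of all genes past 0.32, or past 1.5-fold under the other scalings, were not counted. The 5th to 95th percentile of all genes spanned -0.26 to 0.297 at 13 vs 8 and -0.27 to 0.37 at 21 vs 4 months. With the mean over probe sets the median over the members at 21 vs 4 months was -0.0525, the range of Scd1 was 0.595, the fatty acid synthesis median at 8 vs 4 months -0.015 and the peroxisomal median at 21 vs 4 months -0.05, and the medians of the remaining family members were 0.02 at 21 vs 13 and 0.065 at 21 vs 4 months. With the second probe set the ranges of Scd1 and Scd2 were 0.77 and 0.30, the fatty acid synthesis median at 8 vs 4 months was -0.02, and the medians of the remaining family members were 0.04 at 8 vs 4 and -0.01 at 21 vs 4 months. With no filter the latter was -0.04 and the clock median at 21 vs 4 months 0.00, and with a filter at the 75th percentile the family medians were 0.14 at 21 vs 13 and 0.14 at 21 vs 4 months. In these alternatives the probe sets or genes entering a median differ by construction. No scaling moved the median of all genes by more than 0.03. Dim probe sets such as those of Scd2 are limited by background. No paired analysis was possible because each age has 1 array.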

Other observations

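In the main results, probe sets below the filter on level entered no count past 1.5-fold and no median over genes. The alternatives with the mean over probe sets or with no filter did use them. The Elovl1 probe set below the filter was at 2.40, 2.49, 2.33 and 2.20 at 4, 8, 13 and 21 months. Elovl4, which makes very long chains in retina and skin, was at 2.44, 2.56, 2.31 and 2.62, and Elovl7 at 3.30, 3.49, 3.35 and 3.26.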
